A study of Mus musculus with 12 samples.

Results

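The lysosomal cathepsins and their cystatin inhibitors were followed by RNA-seq through retinoic acid (RA)-induced differentiation of mouse embryonic stem cells (mESCs), with and without knockdown of cathepsin L. The 10 genes were chosen by symbol: the 6 cysteine cathepsins Ctsl, Ctsb, Ctsc, Ctsf, Ctsh and Ctsz, the serine carboxypeptidase Ctsa, the aspartic protease Ctsd, and the inhibitors Cst3 (cystatin C) and Cstb (cystatin B). All 10 are rows of the count table of 24495 genes and all passed the filter on low counts that left 15532 genes for testing. The cells were CCE-Nanog-GFP mESCs, in which a fluorescent reporter marks the pluripotency gene Nanog. Control cells carried a scramble shRNA (shSC, labelled as wild type) and knockdown cells an shRNA against cathepsin L (shCTSL) carried in a pLKO.1 lentiviral vector. Day 0 libraries came from mESCs kept undifferentiated, and those of Day 2 and Day 4 from embryoid bodies (EBs) grown in rotation without LIF in 10 µM all-trans RA. There were 2 replicates per group, 6 groups and 12 libraries. GFP+ cells had been sorted before the experiments, and a single shCTSL line was sequenced, so the effect of this shRNA and of this line cannot be told apart.

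Cathepsins are proteases that are made as inactive proenzymes, tagged with mannose 6-phosphate in the Golgi, carried to endosomes and lysosomes, and activated there by removal of the propeptide. Cystatins bind the active site of papain-like cysteine cathepsins: cystatin C is secreted, whereas cystatin B stays in the cytosol and nucleus. Cathepsin L has also been found in nuclei, and the study knocked it down to ask whether it cuts histone H2A in cells. The comparisons ask which of its relatives change together with Ctsl as EBs form, and whether any is higher where Ctsl is lower.

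The 12 libraries held 11171111 to 27155553 counts each. Values below are counts of a gene per 1000000 counts of its library (CPM), scaled by the TMM method and called normalized CPM. They are given for replicate 1 and then replicate 2. Replicates differed by an SD of the log2 ratio over genes of 0.31 to 0.56 in 5 groups and of 0.72 in the shCTSL Day 2 EBs, where the ribosomal gene Rn45s took 3.43% of the counts of replicate 1. This pair enters the estimate of the spread for every comparison, so results that turn on it are given with and without it. The markers of each state moved between days. The summed CPM of 8 pluripotency genes was 5836 to 6409 in the 4 Day 0 libraries and 291 to 370 in the 4 Day 4 libraries, and that of 6 RA targets was 4.77 to 5.69 on Day 0 and 1353 to 1428 on Day 4. Markers of cells that arise in EBs moved in both directions from Day 0 to Day 4 in shSC. Of 10 visceral endoderm markers 7 were called higher and Spink1 and Lrp2 lower, of 8 parietal endoderm markers 7 higher, and of 7 fibroblast markers tested 6 higher and Thy1 lower. Over all genes tested 32.1% were called higher and 28.7% lower. In shSC on Day 0 Afp and Ttr were at 0 CPM and Apoa1, Col1a2, Col3a1, Dcn and Postn at 0.031 to 0.35. Such genes passed the filter through the EB libraries and so had to differ between days. Thbd, of the parietal endoderm list, was at 0.47 CPM in shSC on Day 0, 0.36 on Day 2 and 2.40 on Day 4. The visceral endoderm, parietal endoderm and fibroblast counts are therefore not a result about these lists. The summed CPM was higher on Day 4 in all 3 lists. The sum over 10 visceral endoderm markers was 111 to 161 on Day 0 and 374 to 518 on Day 4, that over 8 parietal endoderm markers 1422 to 1533 and 3197 to 3587, and that over 8 fibroblast markers 8.64 to 12.3 and 440.03 to 473.58, of which Col3a1 made up 333 in shSC on Day 4. Of 8 macrophage markers only Csf1r and Cd68 passed the filter, and the list summed to 7.70 to 23.5 in all libraries. The visceral endoderm, parietal endoderm and fibroblast lists moved with every rise between days described below, and their part in it was not tested. Between the lines edgeR called 0 of the 41 marker genes tested on each of the 3 days, with 5, 11 and 7 at an unadjusted p under 0.05 on Day 0, 2 and 4, and DESeq2 called 0, 0 and 1 (Stra6, named after its value was seen). In the mean over the days edgeR called 0, 11 had an unadjusted p under 0.05, and DESeq2 called Spink1. The share of all genes under this unadjusted p is not given here. Counts by it, in this paragraph and below, are therefore not a result about the genes counted. Over all genes tested edgeR called 0.0386% lower in shCTSL on Day 0, 0.0579% on Day 2 and 0.18% in the mean. In either direction it called 0.0129% on Day 4. The 0 calls among the markers are near these shares and are not a result about the markers. The parietal endoderm sum was 1556 and 2421 in the shCTSL Day 2 libraries. In bulk RNA, more cells of a type and more RNA per cell cannot be told apart.

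A shared sequence feature was looked for around the start sites, because TFEB and its relatives bind lysosomal genes at an E-box with the core CACGTG. RefSeq promoters (GRCm38.p6, 250 bases before to 50 after each start) were held for 7 of the 10 genes, namely Ctsl, Ctsc, Ctsf, Ctsz, Ctsa, Ctsd and Cst3. The letters CACGTG, which read the same on both strands, stood in the window of 4 of them (Ctsl, Ctsf, Ctsa and Ctsd), against 8.09% of 27025 genes and 7.15% of 32851 promoters in the table. The longer TCACGTGA, which contains CACGTG, was found in Ctsa and Ctsd and in 1.12% of genes. The sites before a RefSeq start are shown with up to 12 bases on either side, 5′ to 3′ on the strand of the gene, with the core in capitals, located in mm9 by identical match. Their first capital lies 236 bases before the start in Ctsl, 79 in Ctsf, 12 in Ctsa, and 245 and 98 in Ctsd, and a further match in Ctsa is not shown. Exons of the GENCODE M1 annotation reach upstream of the RefSeq start in the windows of Ctsf, Ctsa and Ctsd, and the Ctsa site and the proximal Ctsd site lie inside the annotated gene. For Ctsl the annotated gene starts at 64471614 on the minus strand, downstream of the whole window (64471779 to 64472078). From that start the Ctsl site lies farther away than from the RefSeq start.
Ctsl, chr13:64472047-64472076, minus strand: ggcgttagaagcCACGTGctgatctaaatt
Ctsf, chr19:4855074-4855103, plus strand: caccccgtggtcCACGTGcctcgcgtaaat
Ctsa second start, chr2:164659249-164659272, plus strand: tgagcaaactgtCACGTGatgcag
Ctsd distal, chr7:149573960-149573982, minus strand: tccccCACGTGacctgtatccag
Ctsd proximal, chr7:149573813-149573842, minus strand: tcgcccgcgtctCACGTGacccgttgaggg
In the promoters of Ctsc, Ctsz and Cst3 and at the first start of Ctsa these letters were not in the window. A match is a description of the sequence, and no binding was measured here.

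Ctsl, the targeted gene, was examined first as a check of the labels. Ctsl (mm9 chr13:64464522-64471614, minus strand) was at 137 and 147 CPM in shSC mESCs and at 39.2 and 37.5 in shCTSL mESCs. On Day 2 it was at 369 and 391 in shSC and at 211 and 156 in shCTSL, and on Day 4 at 484 and 423 against 257 and 253. Both shCTSL libraries were below both shSC libraries on all 3 days. The level left in shCTSL was 27.0% of shSC on Day 0, 48.1% on Day 2 and 56.2% on Day 4. A gene was called changed at an adjusted p under 0.05 in the edgeR quasi-likelihood fit with at least a 1.5-fold difference. By this rule Ctsl was lower on Day 0 (log2 difference -1.89, SE 0.15, adjusted p = 0.0025) and on Day 2 (-1.06, SE 0.14, adjusted p = 0.034), and in the mean over the days (-1.26, SE 0.082, adjusted p = 2e-04). It was the only one of the 10 genes called lower in each of these comparisons, where 0.0386%, 0.0579% and 0.18% of all genes tested were called lower. On Day 4 the difference of -0.83 (SE 0.14) was not called (adjusted p = 0.090). Without both shCTSL Day 2 libraries it was called on Day 4 as well (-0.82, adjusted p = 1.8e-05). The Day 0 call was lost when either shCTSL Day 0 library was left out (-1.92 and -1.84, adjusted p = 0.083 and 0.11), and the Day 2 call in 10 of 12 omissions of a library, all but those of a shCTSL Day 2 library, over values of -1.28 to -0.85.

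**Figure D1:**
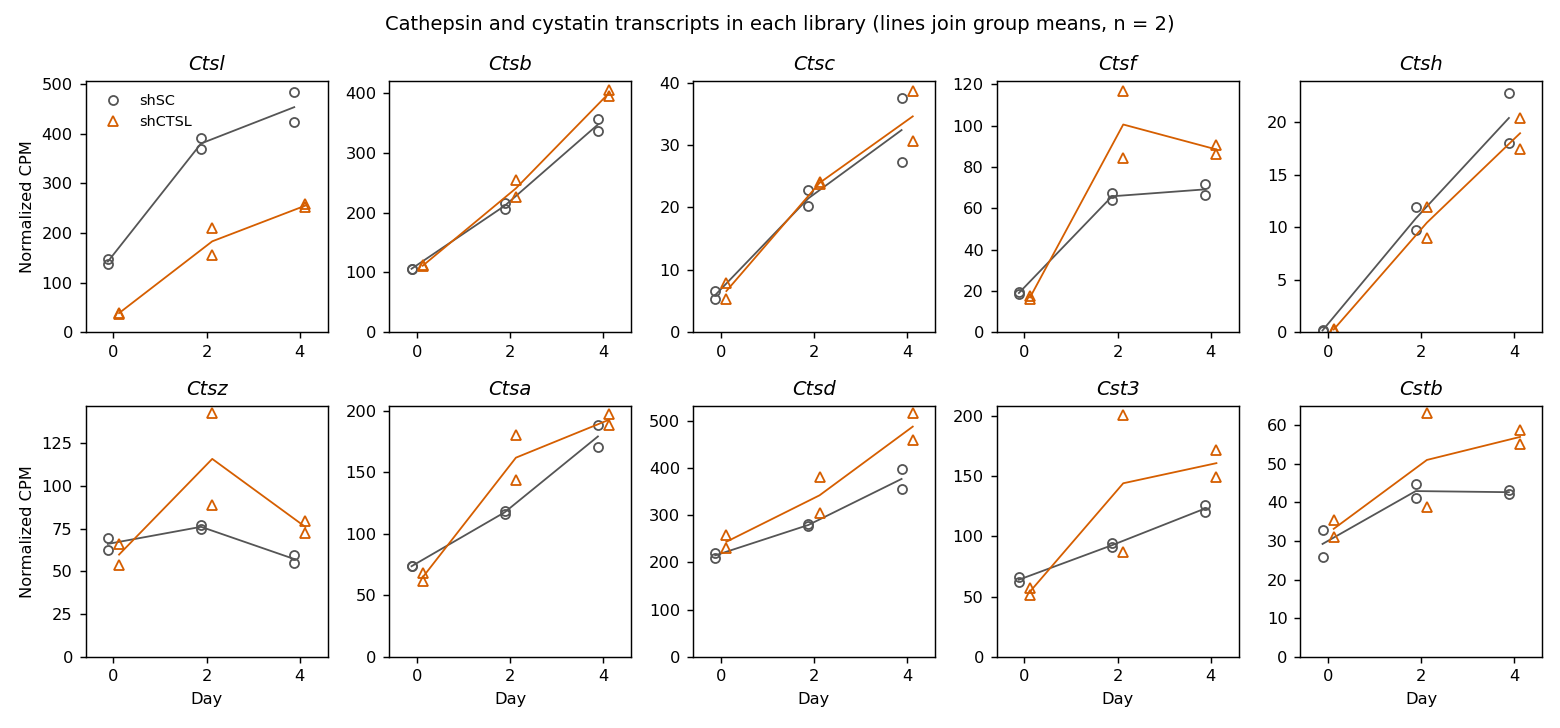
Normalized CPM (vertical axes, each from 0) of the 10 genes on Day 0, 2 and 4, with 1 point per library, circles for shSC, triangles for shCTSL, and lines through the group means (n = 2). Ctsl in shCTSL rose from 39.2 and 37.5 to 257 and 253 CPM and lay below shSC on each day, whereas no other gene was called between the lines.

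In shSC cells most of the cathepsins rose with Ctsl as EBs formed. By Day 2, 6 of the 10 genes were called higher than on Day 0 (Ctsl, Ctsb, Ctsc, Ctsf, Ctsh and Ctsa), against 29.3% of all genes tested, and the other 4 were higher without being called. By Day 4 Ctsd and Cst3 had joined them, giving 8 of 10 against 32.1% of all genes. Ctsh passed the filter only through the EB libraries and so had to differ between days. Of the other 9, 7 were called. The median log2 change of the 10 from Day 0 to Day 4 was 1.48, compared with 0.029 over all genes tested. Ctsz and Cstb were not called on either day, and no gene of the 10 was called lower.

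Among the cysteine cathepsins, Ctsl itself rose 2.67-fold by Day 2 (log2 1.42, SE 0.14, adjusted p = 1.3e-05) and 3.19-fold by Day 4 (log2 1.67, SE 0.14, adjusted p = 3.0e-06). Ctsb (chr14:63741302-63764758), an abundant lysosomal endo- and exopeptidase, was at 106.1 and 106.2 CPM on Day 0, 216 and 207 on Day 2, and 358 and 338 on Day 4. Its 3.28-fold rise by Day 4 (log2 1.71, SE 0.098, adjusted p = 1.9e-07) was close in size to that of Ctsl. Ctsf (chr19:4855129-4860912), a cathepsin with a long propeptide, went from 19.3 and 18.6 to 67.5 and 64.1 and then to 71.8 and 66.4 CPM, which is 3.65-fold by Day 4 (log2 1.87, SE 0.15, adjusted p = 2.1e-06). In both genes the Day 0 libraries lay far below the EB libraries, and for Ctsf the Day 2 and Day 4 libraries overlapped.

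Ctsc (chr7:95426595-95459398), the dipeptidyl peptidase that activates granule serine proteases, was at 6.6 and 5.3 CPM on Day 0, 20.1 and 22.8 on Day 2, and 37.5 and 27.3 on Day 4, a 5.48-fold rise by Day 4 (log2 2.45, SE 0.23, adjusted p = 5.9e-06). Ctsh (chr9:89948990-89970927), an aminopeptidase, was nearly absent from mESCs: 5 counts over both shSC Day 0 libraries and 6 over both shCTSL Day 0 libraries. It was at 11.95 and 9.72 CPM on Day 2 and at 22.8 and 18.0 on Day 4 in shSC. The ratio of Day 4 to Day 0, from 776 and 5 counts, was 123 with a 95% counting interval of 52.3 to 379, and in shCTSL, from 733 and 6 counts, it was 72.1 (33.0 to 197). These intervals cover counting error only. Ctsh was thus the gene of the 10 with the largest rise and the lowest level at the start in both lines.

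Ctsz (chr2:174252994-174264540), the carboxypeptidase cathepsin Z, was the cysteine cathepsin not called between any days in shSC. It was at 62.5 and 69.8 CPM on Day 0, 77.5 and 74.8 on Day 2, and 59.6 and 54.99 on Day 4, with Day 4 below Day 0 in both libraries. The log2 change from Day 0 to Day 4 was -0.21 (95% interval -0.64 to 0.23, adjusted p = 0.36), and with the trend with exonic length removed it turned to 0.017.

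The 2 cathepsins of other protease classes had smaller fold changes than Ctsl. Ctsa (chr2:164658373-164666532), which shields beta-galactosidase and neuraminidase in the lysosome, went from 73.6 and 73.7 CPM to 119 and 116 and then 188 and 170.2, 2.43-fold by Day 4 (log2 1.28, SE 0.12, adjusted p = 7.7e-06). Ctsd (chr7:149557053-149573943), the main aspartic protease of lysosomes, went from 210.3 and 219.7 to 281 and 278 and then 399 and 355, 1.75-fold by Day 4 (log2 0.81, SE 0.13, adjusted p = 0.00028). The libraries of the 3 days did not overlap for either gene.

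The inhibitors had smaller fold changes too. Cst3 (chr2:148697458-148701428) was at 65.8 and 62.1 CPM on Day 0, 94.3 and 90.8 on Day 2, and 120.2 and 126 on Day 4, 1.92-fold by Day 4 (log2 0.94, SE 0.29, adjusted p = 0.015), a call that was lost without shSC Day 0 replicate 2 or shSC Day 4 replicate 2, with values of 0.91 to 1.01 over the omissions. Cstb (chr10:77888415-77890364) was at 32.7 and 25.7 CPM on Day 0, 41.1 and 44.7 on Day 2, and 42.2 and 43.1 on Day 4. Its 1.46-fold difference by Day 4 had an adjusted p of 0.038 but fell short of 1.5-fold, and under DESeq2 and under RLE normalization it was called. Both are short genes, and with each library's trend with exonic length removed, a choice made after the data were seen, the changes by Day 4 were 1.11 for Cstb and 1.36 for Cst3 and both were called.

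**Figure D2:**
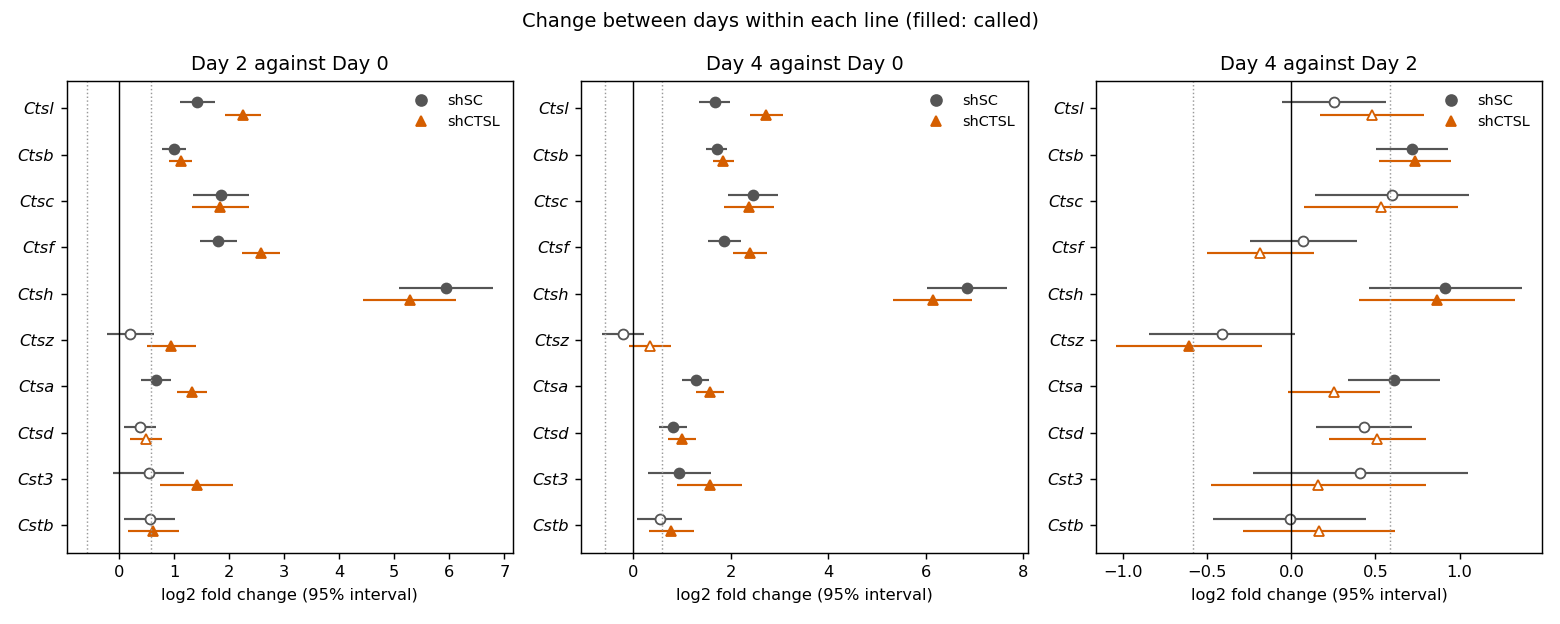
Log2 fold change between days (horizontal axes, with 95% intervals) of the 10 genes in shSC (circles) and shCTSL (triangles). Filled symbols were called and dotted lines mark 1.5-fold. Ctsh had the largest changes, and from Day 2 to Day 4 Ctsb and Ctsh were called higher in both lines.

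The share of the log2 rise that was reached by Day 2 is given for each gene as a description. In shSC, Ctsl reached 84.8% of its log2 rise by Day 2, Ctsf 96.1% and Ctsh 86.6%, whereas Ctsb reached 58.2%, Ctsa 52.6%, Ctsd 46.7% and Cst3 56.6%. Ctsc lay between them at 75.6%. In shCTSL Ctsl (82.5%), Ctsb (60.3%) and Ctsd (48.9%) were close to these shares, but Ctsa was at 84.0% and Cst3 at 89.8%. Both had a log2 change of 1.57 from Day 0 to Day 4 in shCTSL. Their change to Day 2 was 1.19 (Ctsa) and 0.72 (Cst3) without shCTSL Day 2 replicate 1. Without replicate 2 it was 1.47 and 1.89, so that these shares depend on which library is used. From Day 2 to Day 4 in shSC, 3 of the 10 genes were called higher (Ctsb 0.72, Ctsa 0.61 and Ctsh 0.92 on the log2 scale), against 11.4% of all genes tested. Ctsl changed by 0.25 over the same 2 days (95% interval -0.06 to 0.56, adjusted p = 0.20) and Ctsf by 0.07 (-0.25 to 0.39, adjusted p = 0.75). Without shSC Day 4 replicate 1 only Ctsb of the 3 was still called (Ctsa 0.53, Ctsh 0.73), and Ctsh was lost without shSC Day 2 replicate 2 as well (0.78). Whether the steps of 2 genes differ was not tested.

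The pattern of Ctsl in shSC was compared with that of every other gene tested by the root-mean-square difference of centred log2 CPM over the 6 shSC libraries. Ctsf ranked 245th of 15531 genes (difference 0.17), Ctsb 486th (0.22), Ctsa 1039th, Ctsc 1273rd, Cst3 1758th, Ctsd 2286th, Cstb 2736th, Ctsz 6170th and Ctsh 15097th. The measure compares the size of changes as well as their timing, and Ctsh had the largest rise of the 10. The 5 closest genes were March8, a membrane-bound ubiquitin ligase, Itgav, the integrin alpha-V chain, Itm2b, a membrane protein, Ctnnd2, a delta-catenin, and 9330151L19Rik, with differences of 0.056 to 0.067. These ranks depend on single libraries: leaving out each shSC library in turn kept 1 or 2 of the 5 closest genes, and ranking over all 12 libraries kept 0 of them. Ctsf or Ctsb was the closest of the 9 other members under each of these omissions, and Ctsc was when all 12 libraries were used.

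Most of the 10 genes rose in knockdown cells too. From Day 0 to Day 2, 9 of the 10 genes were called higher in shCTSL, all but Ctsd, against 30.9% of all genes, and from Day 0 to Day 4 again 9, all but Ctsz, against 32.3%. Both counts include Ctsh, which passed the filter only through the EB libraries and so had to differ. The Day 2 count turns on single libraries. Without shCTSL Day 2 replicate 1 the log2 change to Day 2 was 0.26 for Cstb and 0.36 for Ctsd, and without replicate 2 it was 0.92 and 0.64. The median log2 change of the 10 from Day 0 to Day 4 was 1.71, beside 0.061 over all genes. Ctsl itself rose 6.64-fold in shCTSL by Day 4 (log2 2.73, SE 0.15, adjusted p = 1.7e-07), from its lower level on Day 0. Ctsb went from 112 and 110.2 CPM to 396 and 406, Ctsf from 17.5 and 16.2 to 86.1 and 90.8, and Ctsd from 258 and 230.0 to 459 and 517. From Day 2 to Day 4, Ctsb and Ctsh were called higher, against 11.0% of all genes, and Ctsz was called lower (log2 -0.61, adjusted p = 0.040), against 12.4%. The Ctsz call was lost in most alternatives, with values of -0.91 to -0.25 when single libraries were left out.

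The difference between the lines in each of these changes was tested as an interaction. With edgeR none of the 10 genes was called for Day 2 against Day 0, Day 4 against Day 0 or Day 4 against Day 2, where 0.0%, 0.00644% and 0.0% of all genes were called. The number with an unadjusted p under 0.05 was 4, 2 and 0, and DESeq2 called 1, 1 and 0, in each case Ctsl. For Ctsl the rise to Day 4 was larger in shCTSL by 1.06 on the log2 scale (95% interval 0.61 to 1.51, adjusted p = 0.39). Without both shCTSL Day 2 libraries this difference was called (1.05, adjusted p = 0.00019), and so was that of Cst3 (0.62, adjusted p = 0.018), as were 1.66% of all genes. In the fit of all libraries the interval of Cst3 was -0.29 to 1.54. With the exonic length trend removed as well, Cst3 was at 0.38 and no longer called, being under 1.5-fold.

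Levels were compared between genes per kilobase of exon. In shSC mESCs Ctsd was the highest of the 10 at 93.8 ± 2.91 CPM per kb (SD, n = 2), followed by Ctsl at 72.01 ± 3.62 and Cst3 at 69.4 ± 2.85, whose libraries overlapped, then Cstb at 48.8 ± 8.26 and Ctsz at 45.9 ± 3.56, which overlapped too. Ctsb stood at 22.4, Ctsa at 19.3, Ctsf at 9.59, Ctsc at 2.38 and Ctsh at 0.092. In shSC EBs Ctsl was the highest, at 192 ± 8.01 on Day 2 and 230 ± 21.7 on Day 4, ahead of Ctsd at 122 ± 0.946 and 165 ± 13.5. In shCTSL mESCs Ctsl was sixth, at 19.4 ± 0.623, and in shCTSL Day 4 EBs it ranked behind Ctsd and Cst3, at 129 ± 1.67 against 213 ± 17.9 and 174 ± 17.0. These per-length levels use the exons of the GENCODE M1 annotation, in which exons of Ctsb, Ctsz and Ctsa overlap a gene on the other strand (Fdft1, Th1l, and Neurl2 and Pltp) and those of Ctsd a gene on the same strand (6330512M04Rik). The sources used here do not give how such reads were assigned.

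**Figure D3:**
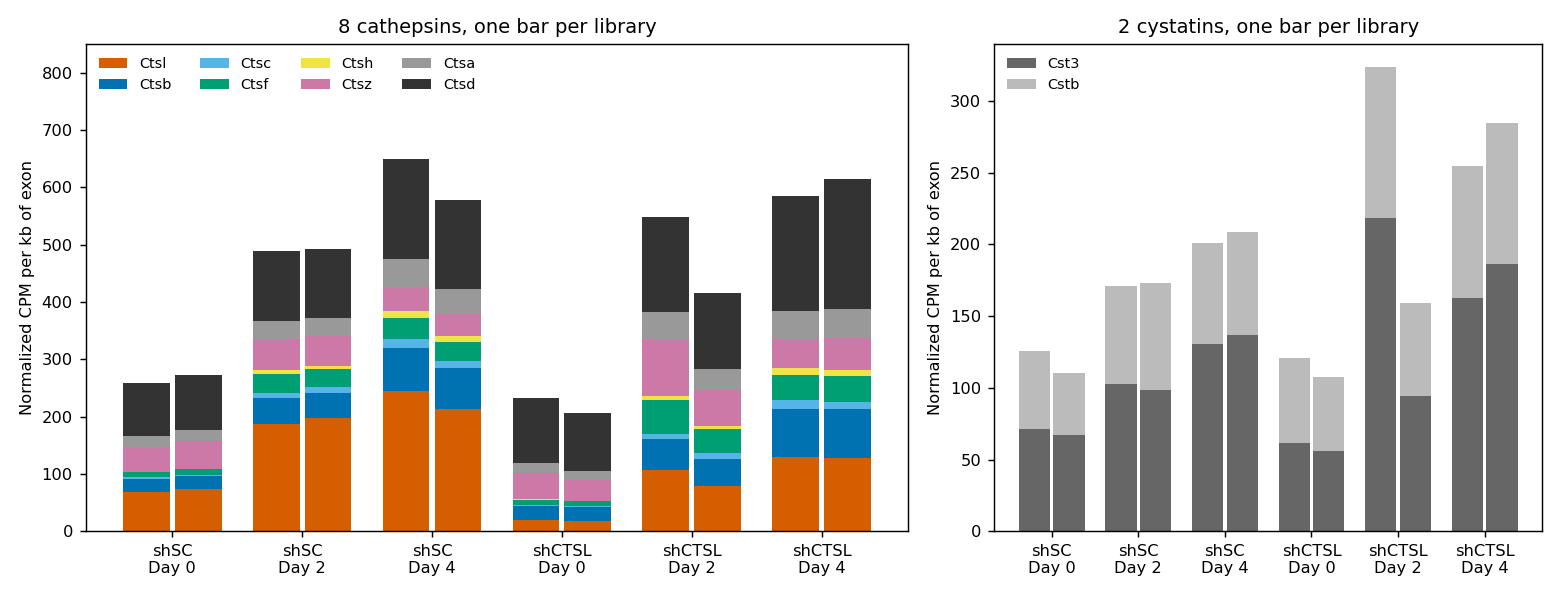
Normalized CPM per kilobase of exon (vertical axes, from 0), stacked over the 8 cathepsins (left) and the 2 cystatins (right), with 1 bar per library. The summed cathepsins were 259 and 272 in shSC and 232 and 207 in shCTSL on Day 0. On Day 4 they were 650 and 578 in shSC and 585 and 614 in shCTSL. The Ctsl segment was smaller in every shCTSL bar than in the shSC bars of the same day.

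Summed over the 6 cysteine cathepsins, the per-length level was 148 and 157 CPM per kb in shSC on Day 0, 335 and 341 on Day 2, and 426 and 378 on Day 4. In shCTSL it was 102 and 90.0 on Day 0, 335 and 246 on Day 2, and 335 and 337 on Day 4. The ratio of shCTSL to shSC was 0.63 ± 0.060 on Day 0, 0.86 ± 0.19 on Day 2 and 0.83 ± 0.070 on Day 4 (SD from the spread of replicates). Ctsl made up 47.2% of this sum in shSC mESCs and 57.0% in shSC Day 4 EBs, and in shCTSL 20.3% and 38.4%. The 5 cysteine cathepsins other than Ctsl summed to a ratio of 0.95 ± 0.10 on Day 0, 1.36 ± 0.30 on Day 2 and 1.197 ± 0.085 on Day 4. On Day 4 Ctsl was lower in shCTSL by 100.4 CPM per kb and the other 5 together were higher by 34.0. With Ctsa and Ctsd included, the ratio over all 8 cathepsins was 0.83 ± 0.074 on Day 0, 0.98 ± 0.19 on Day 2 and 0.98 ± 0.087 on Day 4. Ctsd was at 106 CPM per kb in shCTSL and 93.8 in shSC on Day 0 already. Cst3 and Cstb together had ratios of 0.97 ± 0.12, 1.40 ± 0.67 and 1.32 ± 0.11 on the 3 days. These sums are descriptions with no test, and the trend of the line differences with transcript length, described below, was not removed from them.

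Whether any other gene of the 10 was higher where Ctsl was lower was asked on each day. On Day 0 none of the 9 was called with edgeR, none had an unadjusted p under 0.05 and DESeq2 called none, with log2 differences of -0.24 (Cst3) to 0.60 (Ctsh, from 5 and 6 counts) and adjusted p of 0.86 to 0.96. Over all genes tested 0.0386% were called lower on this day, so the absence of calls is near that share. The 95% interval was -0.15 to 0.28 for Ctsb and -0.11 to 0.47 for Ctsd. Of the 10 genes, 2 had both shCTSL libraries above both shSC libraries on Day 0 (Ctsb and Ctsd). In 4 they were below (Ctsl, Ctsf, Ctsa and Cst3). The share of all genes separated in this way on Day 0 is not given, so these counts are not a result about the genes.

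On Day 4 none of the 10 was called with edgeR, where 0.0129% of all genes were called. Ctsl, Ctsd and Ctsf, 3 of the 10, had an unadjusted p under 0.05, and DESeq2 called Ctsl alone. In 7 of the 10 genes both shCTSL libraries were above both shSC libraries on Day 4 (Ctsb, Ctsf, Ctsz, Ctsa, Ctsd, Cst3 and Cstb), against 30.0% of all genes tested, and for Ctsa the nearest libraries of the 2 lines both stood at 188 CPM. Ctsd was at 399 and 355 CPM in shSC and 459 and 517 in shCTSL, a log2 difference of 0.37 (95% interval 0.09 to 0.66, adjusted p = 0.34). Ctsf was at 71.8 and 66.4 against 86.1 and 90.8, a difference of 0.35 (0.04 to 0.67, adjusted p = 0.38). Ctsb was at 358 and 338 against 396 and 406, a difference of 0.20 (-0.01 to 0.41, adjusted p = 0.42). Each of these 3 genes was separated between the lines by more than the spread of its replicates on this day, yet not called. The same held for Ctsz, Cst3 and Cstb, and the margin was narrow for Ctsd and Cst3. Ctsz was at 59.6 and 54.99 against 72.7 and 79.4 (0.41, -0.03 to 0.84), Cst3 at 120.2 and 126 against 150 and 172 (0.38, -0.25 to 1.02), and Cstb at 42.2 and 43.1 against 55.2 and 58.7 (0.42, -0.04 to 0.87). Ctsc (0.09) and Ctsh (-0.11) overlapped between the lines.

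**Figure D4:**
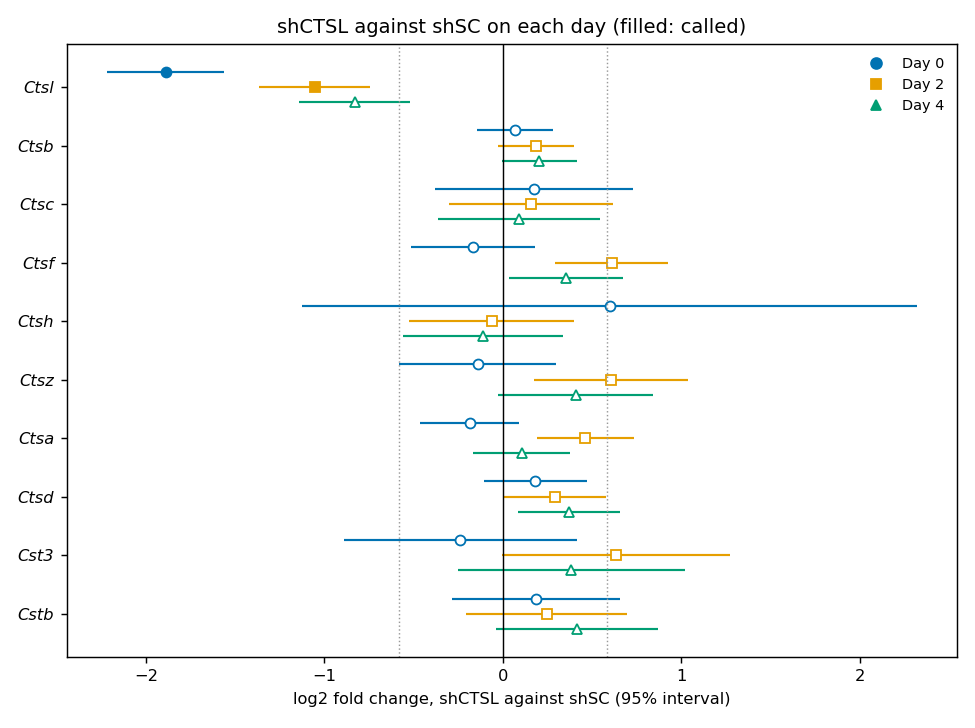
Log2 fold change of shCTSL against shSC (horizontal axis, with 95% intervals) for each gene on Day 0 (circles), Day 2 (squares) and Day 4 (triangles). Filled symbols were called and dotted lines mark 1.5-fold. Only Ctsl, at -1.89 on Day 0 and -1.06 on Day 2, was called.

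The Day 4 result depends on the shCTSL Day 2 libraries, which enter it through the shared estimate of the spread. With both left out, 6 of the 10 genes were higher in shCTSL Day 4 EBs at an adjusted p under 0.05, against 11.4% of all genes: Ctsb (0.21, adjusted p = 0.024), Ctsf (0.36, 0.0035), Ctsz (0.42, 0.0057), Ctsd (0.38, 0.0038), Cst3 (0.39, 0.0031) and Cstb (0.43, 0.0074). All 6 were below 1.5-fold, so that Ctsl was the only gene of the 10 that met the call rule, as did 5.9% of all genes.

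The differences between the lines also moved with transcript length. Over all genes, the median log2 difference on Day 4 was 0.23 in the 2806 genes with the shortest exonic length (up to 1776 bp) and -0.24 in the 2806 with the longest (from 5194 bp), and on Day 2 it was 0.34 and -0.27. Cstb (599 bp of exon), Cst3 (921 bp) and Ctsz (1441 bp) are short genes, whereas Ctsb has 4738 bp. With each library's trend with length removed, as above for the inhibitors, the Day 4 differences of Cstb and Cst3 became 0.12 and 0.13 and that of Ctsz 0.22, while that of Ctsb became 0.31. With the trend removed and both shCTSL Day 2 libraries left out, 4 of the 10 genes were higher in shCTSL at an adjusted p under 0.05, against 8.44% of all genes. They were Ctsb (0.31, adjusted p = 0.0016), Ctsd (0.29, 0.0071), Ctsf (0.23, 0.022) and Ctsz (0.22, 0.049), whereas Cst3 (0.13, 0.14) and Cstb (0.12, 0.39) were not. None of the 4 reached 1.5-fold.

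**Figure D5:**
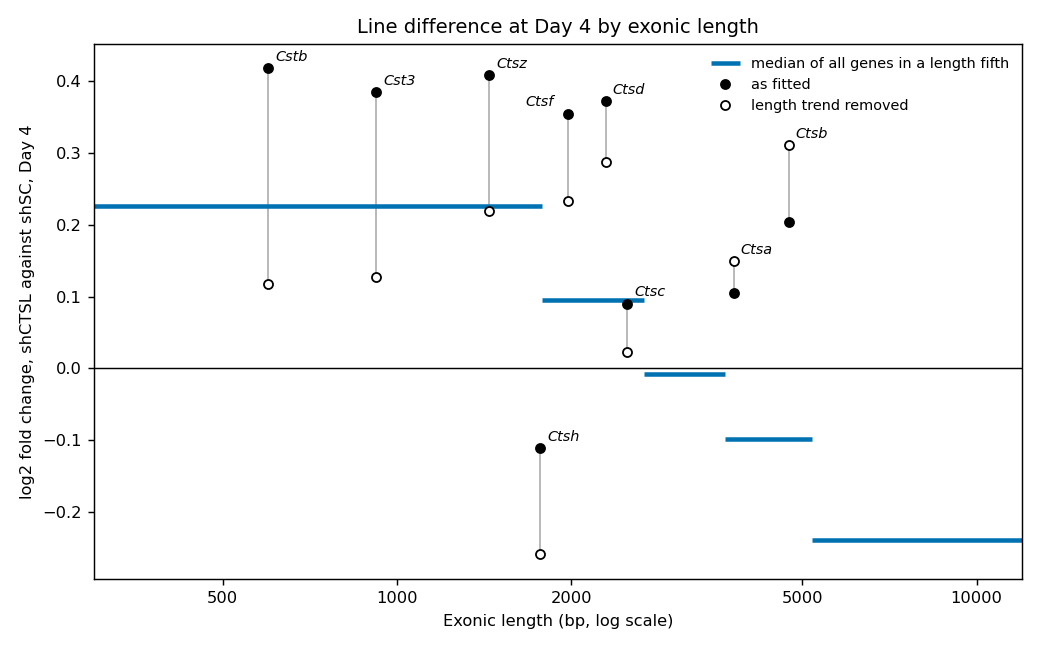
Log2 fold change of shCTSL against shSC on Day 4 (vertical axis) against exonic length (horizontal log axis, bp) for the 9 genes other than Ctsl, as fitted (filled) and with the length trend removed (open), with the median of all genes in each of 5 length classes as bars. The medians ran from 0.23 to -0.24, and the open symbols of Cst3 and Cstb lie near 0.1.

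On Day 2 Ctsl was the only gene of the 10 called, and in 6 of the other 9 both shCTSL libraries were above both shSC libraries (Ctsb, Ctsc, Ctsf, Ctsz, Ctsa and Ctsd), against 22.7% of all genes. The shCTSL libraries were far apart: Cst3 was at 201 and 87.0 CPM, Ctsz at 143 and 89.2, Ctsf at 117 and 84.5, and Ctsa at 180.2 and 144, beside 94.3 and 90.8, 77.5 and 74.8, 67.5 and 64.1, and 119 and 116 in shSC. Replicate 1 was the higher in each. Differences on Day 2 were 0.63 for Cst3, 0.61 for Ctsf, 0.60 for Ctsz and 0.46 for Ctsa, with adjusted p of 0.21 to 0.26. Without shCTSL Day 2 replicate 2 these 4 genes were called higher and Ctsl lower, but 32.3% of all genes were then called. Without replicate 1 only Ctsl was called, against 0.618% of all genes, and Cst3 was at -0.08. The Day 2 values of these genes therefore rest on which of the 2 libraries is used.

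Genes that make, carry and control lysosomal proteases were read beside the 10. Of 37 other cathepsins and cystatin-type inhibitors 9 passed the filter. From Day 0 to Day 4 in shSC 6 of these were called higher and 1 lower, where 32.1% of all genes were called higher and 28.7% lower. Of the 6, all but Lxn were at 0 to 0.25 CPM in the mean of shSC on Day 0 and passed the filter through the EB libraries, so that the count is not a result about the list. Ctla2a, whose product resembles a cathepsin propeptide and inhibits cathepsin L, had 0 counts on Day 0 and 168 on Day 4, at least 44.2-fold higher against a floor of 3 counts over the Day 0 libraries. Ctso, a further cysteine cathepsin, had 3 and 199 counts (ratio 52.4, counting interval 17.7 to 256). Lxn, the carboxypeptidase inhibitor latexin, was the called gene with the smallest rise (log2 1.06), and Ctsw, a cathepsin of cytotoxic lymphocytes, was lower (-1.43). In shCTSL 7 were called higher and 0 lower, where 32.3% and 27.6% of all genes were.

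Of 16 genes for processing and delivery of lysosomal proteases, 7 were called higher and 2 lower in shSC by Day 4, beside 32.1% and 28.7% of all genes. Neu1, the neuraminidase that Ctsa protects (log2 2.29), and Furin, a proprotein convertase (2.22), had the largest rises. Scarb2, which carries glucocerebrosidase (-0.64), and Gnptab, a subunit of the enzyme that makes the mannose 6-phosphate tag (-0.61), were lower. Of 8 transcription factors and their regulators of lysosomal genes 4 were called higher and 3 lower, beside the same 32.1% and 28.7% of all genes, so that the list had calls in both directions. Tfeb, a main activator of lysosomal genes, fell from 56.03 to 6.07 CPM (log2 -3.19), and its relative Mitf from 27.6 to 6.76 (-2.02). Zkscan3, described as a repressor of lysosomal genes, rose (1.66), and Tfec, a further relative of Tfeb, had 2 counts on Day 0 and 30 on Day 4 (ratio 11.8, counting interval 3.01 to 102). Tfec passed the filter only through the EB libraries and so had to differ between days. It is among the 4 called higher, so that this count is not a result about the list. The median change of the 8 was 0.094 and of the 16 genes 0.063, beside 0.029 over all genes. Between the lines, edgeR and DESeq2 called none of the 33 genes of these lists that were tested on any day or in the mean over the days, with 2, 8, 2 and 9 at an unadjusted p under 0.05 on Day 0, Day 2, Day 4 and in the mean. With edgeR 0.0386% of all genes were called lower on Day 0, 0.0579% on Day 2 and 0.18% in the mean. In either direction 0.0129% were called on Day 4. The absence of calls in these lists is near those shares. The share of all genes under this unadjusted p is not given. Neither the absence of calls nor the counts by this p are therefore a result about the lists.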

How the data were processed

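RNA-seq of 12 libraries was analysed. The authors selected poly(A) RNA, made directional libraries, mapped them to the mm9 genome (STAR 2.3.0e), discarded mitochondrial reads, reads off the chromosomes and those with mapping quality under 10 (SAMtools 0.1.19), and deposited unnormalized whole-number counts per RefSeq gene from featureCounts 1.6.2. The strand setting and the handling of reads on overlapping genes are not given in the sources used here, which call the replicates biological without naming their source.

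Counts were fitted in R 4.3.3 with edgeR 4.0.16 (filterByExpr, minimum count 10; TMM; estimateDisp, glmQLFit, glmQLFTest; a mean per group over all 12 libraries, 6 residual degrees of freedom). p-values were adjusted by Benjamini-Hochberg over all 15532 genes. A log2 interval uses the SE and 9.996 degrees of freedom. With 2 libraries per group each SD is imprecise. The 13 comparisons were the changes between days in each line, the lines on each day and in the mean, and the interactions. Exonic lengths came from GENCODE M1 (90.3% of genes tested), motifs from RefSeq promoters. Tables and figures used Python 3.11.15, scipy 1.17.1 and matplotlib 3.10.9.

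The 10 genes, the lists and the markers were chosen with earlier results of these data known. The genes named are the 10, the genes closest to Ctsl, any gene of the 3 lysosomal lists called between the lines, and the 2 highest and 2 lowest called changes of each list in shSC by Day 4. Alternatives were RLE normalization, DESeq2 1.42.0, no filter, only the groups compared, both shCTSL Day 2 libraries left out, a log2 fold change of at least 1.5, a replicate block, and each library left out. Chosen after seeing the data were removal of each library's trend with exonic length, alone and without the shCTSL Day 2 libraries, the longest transcript as length, and single libraries left out of the sums and ranks. The pairing check of replicate numbers is given with the alternatives.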

Additional observations from a re-analysis of the deposited data

Results flagged for a closer look

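Ctsz moved in opposite directions in the 2 lines between Day 0 and Day 4: both shSC Day 4 libraries (59.6 and 54.99 CPM) were below both Day 0 libraries (62.5 and 69.8), and both shCTSL Day 4 libraries (72.7 and 79.4) were above both Day 0 libraries (65.9 and 53.8). The difference between the lines, tested as an interaction in the edgeR fit, was 0.55 on the log2 scale (95% interval -0.07 to 1.17, adjusted p = 0.77), so that it is not shown to differ. Ctsz is 1 of the short genes whose values moved with the length trend, and with that trend removed its change in shSC was 0.017.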

How the results depend on the processing

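With a log2 fold change of at least 1.5 required, the genes called were 3 and 5 for Day 2 and Day 4 against Day 0 in shSC, 4 for Day 2 against Day 0 in shCTSL, 0 for Day 4 against Day 2 in either line, 0 for the lines on Day 2 and 0 in their mean. Fitting only the groups compared called 0 from Day 2 to Day 4 in shCTSL and 0 between the lines on Day 2. Ctsl became the 1 gene called on Day 4 without a count filter, with only the groups compared, under DESeq2, without both shCTSL Day 2 libraries, and with the length trend removed with or without them. For the interaction of Day 4 against Day 0, 2 genes were called with only the groups compared and without both shCTSL Day 2 libraries, and 1 under DESeq2 and in both fits with the length trend removed. For Day 2 against Day 0 DESeq2 called 1. With the length trend removed 5 genes were called from Day 2 to Day 4 in shCTSL. The replicate numbers share only a number (correlations of replicate deviations between groups -0.30 to 0.12), and with the replicate block the Ctsl difference on Day 2 was -1.06 but not called, leaving 0 genes, with no other call of the 10 changed.

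Leaving out single libraries gave 1 to 4 genes called from Day 2 to Day 4 in shSC and 2 to 5 in shCTSL, 0 to 1 between the lines on Day 0 and on Day 4, 0 to 5 on Day 2, and 0 to 5, 0 to 2 and 0 to 1 for the 3 interactions. It turned the sign of these uncalled values: Cstb from Day 2 to Day 4 in shSC (-0.070 to 0.053), Ctsf, Cst3 and Cstb from Day 2 to Day 4 in shCTSL (-0.40 to 0.045, -0.32 to 0.86 and -0.15 to 0.53), Ctsc and Ctsz between the lines on Day 0 (-0.17 to 0.44 and -0.30 to 0.02), Ctsh, Cst3 and Cstb on Day 2 (-0.28 to 0.13, -0.080 to 1.12 and -0.13 to 0.56), Ctsc and Ctsh on Day 4 (-0.12 to 0.34 and -0.27 to 0.072), Ctsh in the mean (-0.029 to 0.51) and Ctsc in the interaction of Day 4 against Day 0 (-0.34 to 0.27). Removing the length trend turned Ctsz from Day 0 to Day 4 in shSC to 0.017 (0.018 without both shCTSL Day 2 libraries), Cstb from Day 2 to Day 4 in shSC to 0.15 (0.15), Cstb between the lines on Day 2 to -0.21 and Cstb in the interaction of Day 4 against Day 0 to -0.046 (-0.054). The cause was not tested.

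Of the single-gene values under all alternatives, 2144 kept their direction and side of the threshold, 59 lost a call, 66 gained one and 26 changed sign. All 72 alternatives for the sums per length stayed within the spread of replicates. Ranks of likeness to Ctsl moved in all 72 alternative values. With 2 libraries per group the intervals are wide, and at 5 and 6 counts the difference of Ctsh between the lines on Day 0 was not detectable at this depth.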
